A study of Homo sapiens with 8 samples.

Results

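The Snail, ZEB and TWIST families and the factors PRRX1 and FOXC2 are transcription factors known for driving epithelial-mesenchymal transition (EMT), and their 9 genes were followed here across 4 groups of human colon cancer cells. The genes were taken by name: SNAI1, SNAI2, SNAI3, ZEB1, ZEB2, TWIST1, TWIST2, PRRX1 and FOXC2, of 19775 genes measured. They were read by 20 of 54675 probe sets, and each gene is given by its brightest probe set over the 8 arrays, with the others as a check. Each group had 2 arrays. HT29 parental cells grew in DMEM with 10% fetal bovine serum. HT29 cells titled 1st spheres grew without serum in DMEM-F12 to which N2 Plus Supplement, penicillin-streptomycin, bFGF (10 ng/ml) and EGF (10 ng/ml) had been added. An SW480 stable line carrying the vector control and an SW480 stable line labelled as expressing Snail both grew in high-glucose DMEM with 10% serum. HT29 and SW480 are established lines from human colorectal adenocarcinomas. No source used here gives the Snail construct, its promoter, or whether each stable line is a clone or a pool.

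In EMT, epithelial cells lose adhesion to their neighbours and take on mesenchymal traits. Snail proteins (SNAI1, SNAI2 and SNAI3) and ZEB proteins are zinc finger repressors that bind E-box sequences in the promoters of epithelial genes such as CDH1, which encodes E-cadherin, and recruit corepressors there. TWIST proteins are basic helix-loop-helix factors, PRRX1 is a homeobox factor and FOXC2 a forkhead factor, and all have been tied to mesenchymal programmes. In epithelial cells ZEB1 and ZEB2 are held down by the miR-200 family, which they repress in turn. In colorectal tumours these factors are studied at the invasive front and in relation to resistance to treatment.

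The E-box of the Snail and ZEB repressors is the hexamer CACCTG, which reads CAGGTG on the opposite strand. It was searched on both strands in RefSeq promoter windows of assembly GRCh38.p14, which run from 250 bases before to 50 bases after a transcription start. Of 35116 such windows, 20.6% held at least 1 E-box, as did 24.1% of 27305 genes in any window. Of the 29 epithelial genes listed as reported targets of these repressors, 15 had a window and 13 of those 15 (86.7%) held the hexamer. Some of these genes are known as targets because their promoters carry E-boxes, so the share describes the list. Of the 4 EMT factors with a window (ZEB1, ZEB2, TWIST2 and PRRX1), ZEB1 held the hexamer, in 2 of its 7 windows. SNAI1, SNAI2, SNAI3, TWIST1, FOXC2 and CDH1 had no entry. The ZEB1 window with the most E-boxes (3, chr10:31318966-31319265, plus strand) is shown with those of 3 epithelial targets that were lower in SW480 vector than in HT29 parental cells and held the most; PATJ also held 3 and was lower (-2.49), and the tie went to the lower adjusted p. The targets shown are CLDN7, a claudin of tight junctions (5, chr17:7262429-7262728, minus strand), CRB3, a Crumbs polarity protein (5, chr19:6464021-6464320, plus strand), and AP1M2, an epithelial sorting adaptor (3, chr19:10587263-10587562, minus strand). The capitals mark the E-boxes, and each sequence reads 5′ to 3′ along its gene. A match is a stretch of letters and not evidence of binding.
ZEB1: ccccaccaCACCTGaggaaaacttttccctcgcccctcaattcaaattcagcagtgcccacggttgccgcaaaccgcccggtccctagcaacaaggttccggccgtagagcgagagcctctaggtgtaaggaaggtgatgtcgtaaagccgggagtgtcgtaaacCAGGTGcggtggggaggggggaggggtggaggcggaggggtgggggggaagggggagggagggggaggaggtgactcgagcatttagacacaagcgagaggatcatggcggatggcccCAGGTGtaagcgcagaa
CLDN7: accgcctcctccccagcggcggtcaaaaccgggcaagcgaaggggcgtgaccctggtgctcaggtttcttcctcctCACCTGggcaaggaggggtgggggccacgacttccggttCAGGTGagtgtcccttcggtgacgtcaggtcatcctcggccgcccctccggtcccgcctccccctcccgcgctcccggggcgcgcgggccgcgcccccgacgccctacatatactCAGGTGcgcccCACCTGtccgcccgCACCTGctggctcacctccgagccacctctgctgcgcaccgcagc
CRB3: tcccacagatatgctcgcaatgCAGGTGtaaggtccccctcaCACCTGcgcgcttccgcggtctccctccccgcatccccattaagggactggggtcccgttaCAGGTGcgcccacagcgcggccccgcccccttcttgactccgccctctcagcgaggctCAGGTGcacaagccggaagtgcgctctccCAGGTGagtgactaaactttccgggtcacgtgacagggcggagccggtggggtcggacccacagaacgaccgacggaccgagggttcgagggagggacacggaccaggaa
AP1M2: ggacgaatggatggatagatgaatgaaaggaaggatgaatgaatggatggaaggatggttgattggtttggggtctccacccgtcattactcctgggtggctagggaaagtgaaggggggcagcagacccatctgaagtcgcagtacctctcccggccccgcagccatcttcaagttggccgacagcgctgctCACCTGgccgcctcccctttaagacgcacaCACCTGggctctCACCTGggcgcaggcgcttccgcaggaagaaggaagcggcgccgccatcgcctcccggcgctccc

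The array medians lay between 5.50 and 5.61 on the log2 RMA scale. Partner arrays correlated at 0.991 to 0.995 over all genes, and 200 genes lay at least 2-fold apart within the parental pair, against 10 to 19 in each other pair. Whether partner arrays stem from separate cultures is not in the labels, so the spread that the p-values rest on may be technical. No detection call was used. As a description of dim readings, 107 probe sets for olfactory receptors were used, on the assumption that most are not transcribed in colon cells. Their medians were 4.42 to 4.70 and their 95th percentiles 5.66 to 5.83 on the arrays, called the dim range here. Whether some of them carry real signal was not tested. Of 12 colon epithelial markers, 11 read above the dim range on both HT29 parental arrays, 12 in spheres, 8 in SW480 vector cells and 7 under the Snail label. Of 10 fibroblast markers, which would also bring ZEB and TWIST transcripts, 3, 5, 1 and 3 did so in the same order, with mean levels of 5.06 to 5.86 over all arrays. Immune markers gave 2, 3, 1 and 1 of 7 (means 5.16 to 6.64) and endothelial markers 3, 3, 2 and 3 of 6 (means 5.35 to 5.74). Above the dim range in at least 1 group were CD3E, CD14 and LYZ among the immune markers, and PECAM1, TEK and ENG among the endothelial ones. The fibroblast markers COL1A1, DCN, LUM, PDGFRB and THY1 also read above it in at least 1 group. PTPRC, a leukocyte marker, and CDH5 and VWF, endothelial markers, were among those not above it in any group. The fibroblast gene LUM rose by 3.78 log2 in spheres. Its part in the results was not tested, and in bulk RNA fewer cells with a transcript and less of it per cell cannot be told apart.

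SW480 vector cells had more SNAI2, ZEB1, TWIST2 and PRRX1 signal than HT29 parental cells and less SNAI3. In HT29 spheres SNAI1 and FOXC2 rose and SNAI3 fell. In the SW480 arrays labelled Snail, PRRX1 rose, and SNAI1 itself read the same as in the vector arrays. Of these differences, only the SNAI1 rise in spheres and the SNAI2 difference between the lines stayed called under every alternative that held the gene. SNAI2 was among the genes removed when the dimmest 40% were left out, so it was not tested in that setting. Each other one lost its call with another probe set, another setting or an array left out, as given below. By limma, with a threshold of 0.05 on the adjusted p, 5 of 9 factors differed between the lines (4 higher and 1 lower in SW480), where 46.1% of all genes passed, 22.6% higher and 23.5% lower. In spheres 3 of 9 passed (2 higher, 1 lower), against 31.4% of all genes, 12.4% higher and 19.0% lower. In the Snail comparison 1 of 9 passed, against 16.2%, of which 8.91% were higher and 7.34% lower. With 9 genes, these counts lie near the background and are no result about the factors as a set. The median difference of the 9 was 0.35, 0.08 and 0.00 log2 in the same order, beside 0.07, 0.04 and 0.01 over all genes. The line comparison shares its parental arrays with the sphere comparison and its vector arrays with the Snail comparison. It also compares lines that differ in origin, in vector selection and in stated medium, which cannot be told apart from each other.

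**Figure D1:**
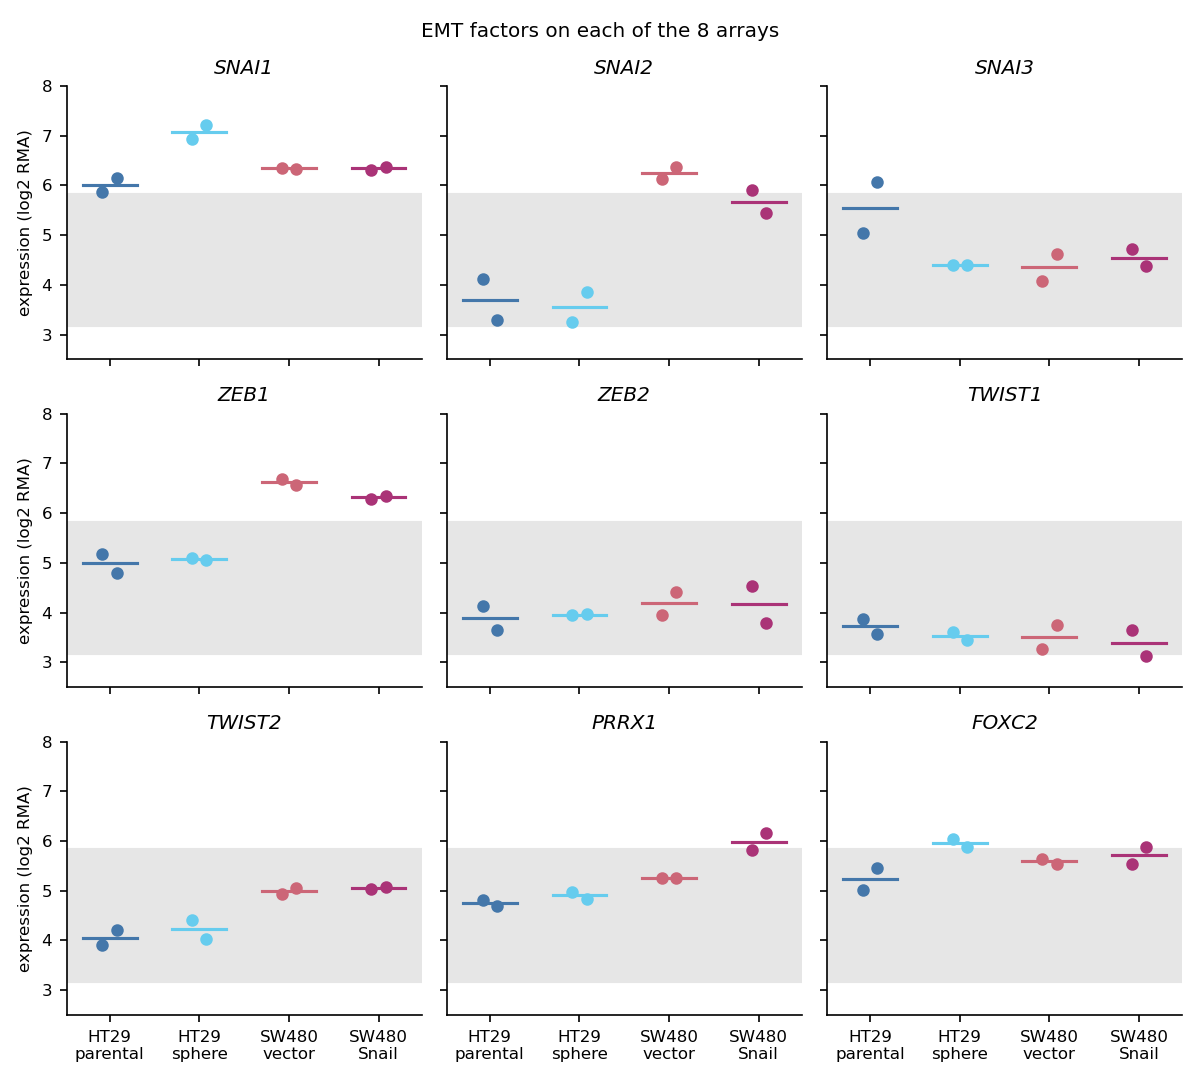
Expression (log2 RMA, y axis) of the 9 factors by the probe set used, 1 point per array and a bar at the mean of the 2 arrays of each group; the grey band runs from the lowest 5th to the highest 95th percentile of the olfactory receptor probe sets over the arrays. SNAI1 lies above the band on every array, with spheres highest at 6.93 and 7.21; ZEB1 leaves it in SW480 only, and ZEB2, TWIST1 and TWIST2 stay within or below it.

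SNAI1 encodes Snail, the repressor that 1 of the SW480 lines is labelled as expressing, and it is read by 1 probe set (219480_at). It stood at 5.87 and 6.15 on the parental arrays, 6.93 and 7.21 in spheres, 6.36 and 6.34 in vector and 6.32 and 6.38 in Snail arrays. Spheres were highest without overlap, and the Snail arrays lay on either side of the vector arrays. The sphere rise was 1.07 ± 0.15 log2 (SE; 2.09-fold, adjusted p = 0.00032), and it stayed between 0.92 and 1.21 under every alternative. In the arrays labelled Snail the difference was 0.00 ± 0.15 log2 (adjusted p = 0.99), with a 95% interval of -0.32 to 0.33. The label is thus not borne out by this probe set. Where its probes lie is in no source used here, and this probe set would miss a construct that lacks the probed stretch. Every direction below that involves the arrays labelled Snail rests on the label. Between the lines SNAI1 differed by 0.34 ± 0.15 (adjusted p = 0.084), and by 0.48 without parental array 2 (adjusted p = 0.035). The sphere and Snail responses of SNAI1 differed by -1.06 ± 0.21 (Snail minus sphere, adjusted p = 0.0036), where 27.5% of all genes passed, 16.9% higher and 10.6% lower.

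SNAI2 encodes Slug, the Snail relative known from neural crest cells. Its 1 probe set read 4.11 and 3.29 on the parental arrays, 3.26 and 3.86 in spheres, 6.13 and 6.38 in vector and 5.91 and 5.44 in Snail arrays. All 4 SW480 arrays lay above all 4 HT29 arrays, and the HT29 groups overlapped. SNAI2 was 2.55 ± 0.28 log2 higher in vector than in parental cells (5.87-fold, adjusted p = 3.1e-05). Since HT29 values lay in the dim range, the size of this fold rests on a reading that may be background. In the arrays labelled Snail it was -0.58 ± 0.28 log2 against vector, without overlap but not past the threshold (adjusted p = 0.20), and in spheres -0.14 ± 0.28 (adjusted p = 0.76).

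SNAI3 is the least studied of the Snail genes. It read 5.04 and 6.07 on the parental arrays, 4.41 and 4.40 in spheres, 4.08 and 4.63 in vector and 4.72 and 4.38 in Snail arrays. The parental arrays were highest but lay 1.03 log2 apart, the widest gap of any factor within a group, and only the second of them exceeded the dim range. The fall in spheres was -1.16 ± 0.29 log2 (adjusted p = 0.012). It was -0.64 without parental array 2 (adjusted p = 0.078), and the call was also lost without sphere array 1 (-1.16) or sphere array 2 (-1.15). SNAI3 was -1.20 ± 0.29 in vector against parental cells (adjusted p = 0.0066). That call was lost without vector array 1 (-0.93, adjusted p = 0.057), and without parental array 2 the difference was -0.69. SNAI3 responses to sphere culture and to the Snail label differed by 1.35 ± 0.415 (adjusted p = 0.035).

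ZEB1 encodes a zinc finger repressor of CDH1 and of polarity genes. By the probe set used (212758_s_at) it read 5.18 and 4.80 on the parental arrays, 5.09 and 5.05 in spheres, 6.68 and 6.57 in vector and 6.29 and 6.35 in Snail arrays. The lines did not overlap, and only SW480 arrays exceeded the dim range. ZEB1 was 1.63 ± 0.15 log2 higher in vector than in parental cells (3.10-fold, adjusted p = 7.4e-06). Among the other ZEB1 probe sets, 212764_at gave 3.58 ± 0.19 (3.48 and 3.46 in parental against 7.18 and 6.92 in vector cells) and 210875_s_at 1.88 ± 0.19. The fourth, 239952_at, gave 0.26 ± 0.19 (adjusted p = 0.32) and stayed in the dim range on every array. Thus 3 of 4 probe sets called the line difference, and its size ranged from 1.63 to 3.58 among them.

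Within each line ZEB1 did not pass the threshold. In spheres it was 0.08 ± 0.15 (adjusted p = 0.73; 95% interval -0.25 to 0.40). In the arrays labelled Snail it was -0.31 ± 0.15 against vector (adjusted p = 0.19), with both Snail arrays below both vector arrays, and 3 of its 4 probe sets gave negative values. ZEB2, the close relative of ZEB1, showed no called difference with any of its 5 probe sets. By the one used it read 4.14 and 3.66, 3.95 and 3.97, 3.96 and 4.42, and 4.53 and 3.80 in parental, sphere, vector and Snail arrays. All 4 groups overlapped, every reading of the 5 probe sets lay in the dim range or below it, and differences by the probe set used ran from -0.02 to 0.29 log2. A change in ZEB2 was thus not measurable with these probe sets.

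**Figure D2:**
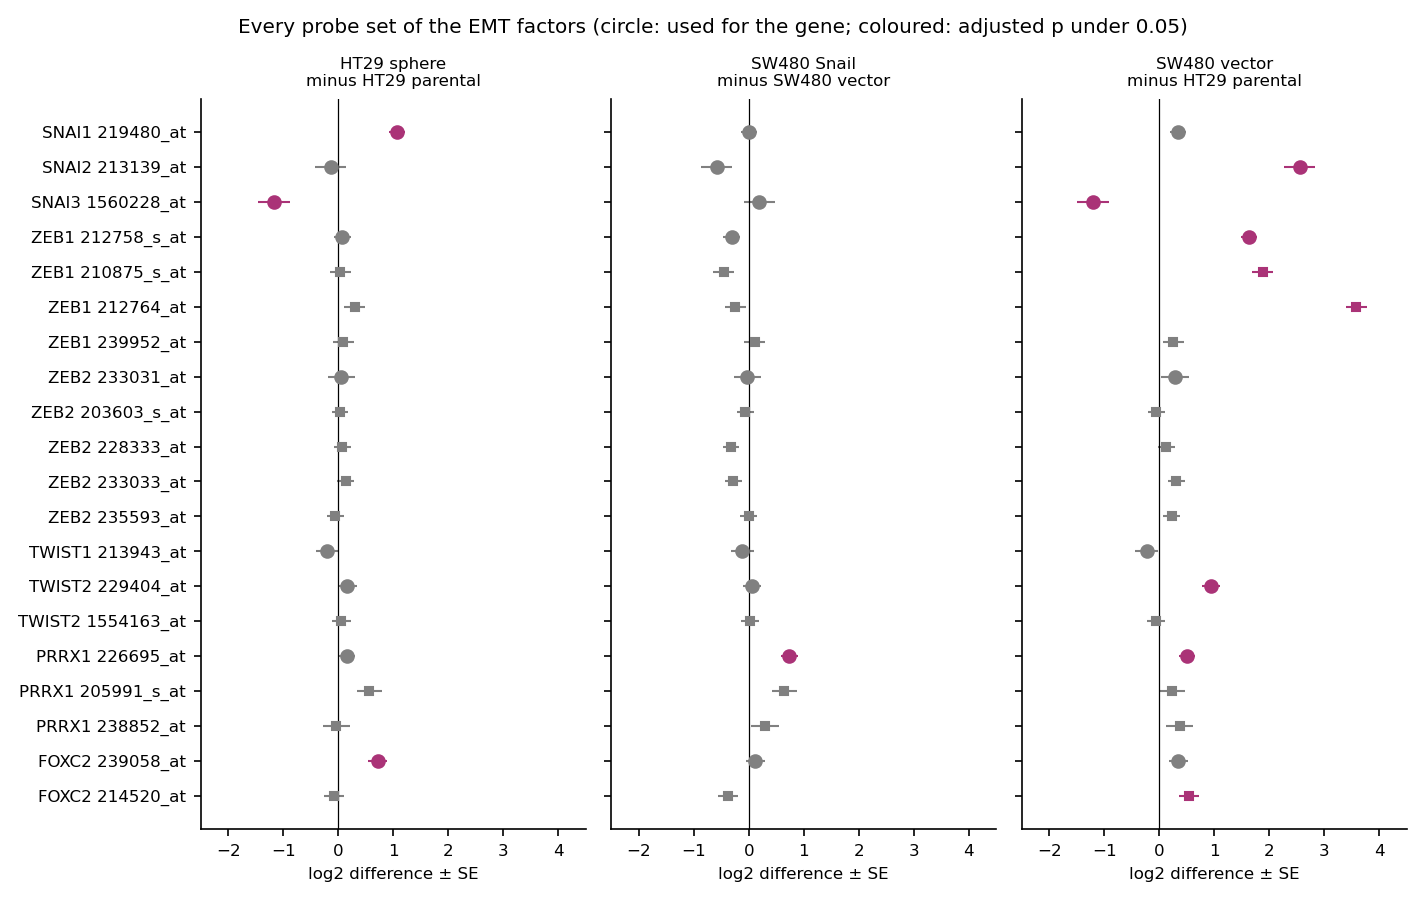
Log2 difference ± SE (x axis) of each of the 20 probe sets of the 9 factors in the 3 comparisons; circles mark the probe set used for the gene, squares the others, and colour marks an adjusted p under 0.05 over all probe sets. ZEB1 probe sets lie at 0.26 to 3.58 between the lines, while the second probe sets of TWIST2 (-0.06) and, in spheres, FOXC2 (-0.08) lie near 0.

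TWIST1, a basic helix-loop-helix factor of mesoderm, read 3.88 and 3.58 on the parental arrays, 3.61 and 3.46 in spheres, 3.27 and 3.75 in vector and 3.65 and 3.13 in Snail arrays. The groups overlapped and no reading left the dim range upward, so the differences of -0.20, -0.12 and -0.23 log2 (spheres, Snail label and line, adjusted p = 0.52, 0.76 and 0.41) say little of the transcript. TWIST2, its paralog, read 3.91 and 4.20 on the parental arrays, 4.42 and 4.03 in spheres, 4.94 and 5.05 in vector and 5.04 and 5.08 in Snail arrays. All SW480 arrays were above all HT29 arrays, yet none exceeded the dim range. TWIST2 was 0.94 ± 0.16 log2 higher in vector than in parental cells (adjusted p = 0.00069). Its other probe set (1554163_at) read 4.28 and 3.84 against 3.96 and 4.04, a difference of -0.06 ± 0.17. The line difference of TWIST2 therefore rests on 1 of 2 probe sets. Within the lines TWIST2 was 0.17 ± 0.16 in spheres and 0.06 ± 0.16 under the Snail label (adjusted p = 0.48 and 0.85).

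PRRX1, a paired-related homeobox factor of mesenchyme, was the only factor past the threshold in the arrays labelled Snail. It read 4.81 and 4.69 on the parental arrays, 4.98 and 4.84 in spheres, 5.26 and 5.25 in vector and 5.81 and 6.16 in Snail arrays. The group means rose in that order, and the 4 groups did not overlap. PRRX1 was 0.74 ± 0.15 log2 higher in the Snail arrays than in the vector arrays (1.67-fold, adjusted p = 0.0072). It was 0.56 (adjusted p = 0.075) without Snail array 2, which was the only PRRX1 reading above the dim range. The other PRRX1 probe sets, 205991_s_at and 238852_at, gave 0.65 ± 0.23 and 0.30 ± 0.25 (adjusted p = 0.10 and 0.52), and the mean of all 3 gave 0.56 (adjusted p = 0.062). Between the lines PRRX1 differed by 0.50 ± 0.15 (adjusted p = 0.016). That call was lost without parental array 2 (0.44), vector array 1 (0.50) or vector array 2 (0.51), with the mean of probe sets (0.37, adjusted p = 0.12), and with either other probe set (0.23 and 0.37). In spheres PRRX1 was 0.16 ± 0.15 (adjusted p = 0.45). The difference between the Snail and sphere responses of PRRX1 was 0.58 ± 0.20 (adjusted p = 0.062), and 0.66 and 0.64 after quantile normalization and after subtracting array medians (adjusted p = 0.036 and 0.045).

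FOXC2, a forkhead factor of mesenchyme and lymphatic development, read 5.02 and 5.46 on the parental arrays, 6.03 and 5.88 in spheres, 5.64 and 5.54 in vector and 5.54 and 5.88 in Snail arrays. The mean was highest in spheres and lowest in parental cells, and only the spheres had both arrays above the dim range. FOXC2 rose in spheres by 0.72 ± 0.17 log2 (1.64-fold, adjusted p = 0.0096). The call was lost without parental array 1 (0.50) or sphere array 1 (0.64). The second FOXC2 probe set, 214520_at, gave -0.08 ± 0.18 in spheres, and the mean of both gave 0.32 (adjusted p = 0.13). FOXC2 was 0.12 ± 0.17 under the Snail label (adjusted p = 0.71) and 0.35 ± 0.17 between the lines (adjusted p = 0.13). The mean of both probe sets gave 0.44 between the lines (adjusted p = 0.032), and the call was also made without parental array 2 (0.56, adjusted p = 0.029).

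**Figure D3:**
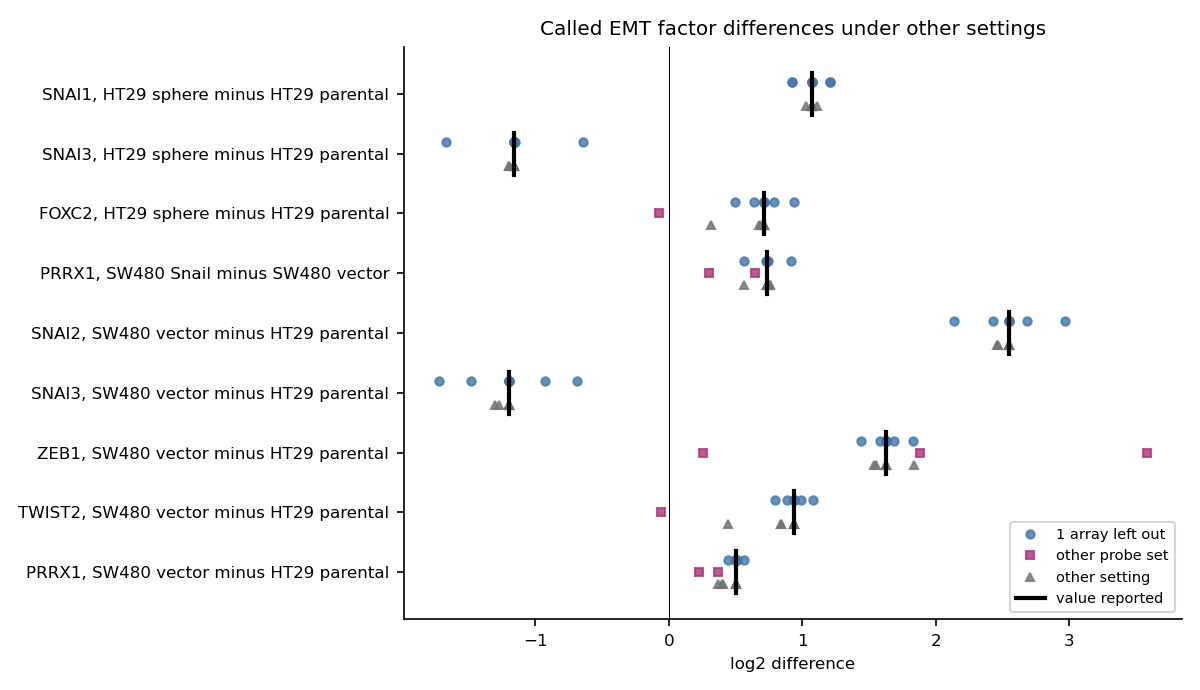
Log2 difference (x axis) of the 9 called factor values (rows) as reported (black bar), with 1 array left out (blue circles), by another probe set (purple squares) and under other settings (grey triangles). SNAI1 in spheres stays between 0.92 and 1.21 and SNAI2 between the lines between 2.14 and 2.97, while SNAI3 in spheres spreads from -1.67 to -0.64.

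The order of the groups differed from factor to factor. SNAI2, ZEB1 and ZEB2 had their highest mean in vector cells, SNAI1 and FOXC2 in spheres, TWIST2 and PRRX1 in the arrays labelled Snail, and SNAI3 and TWIST1 in parental HT29 cells. SNAI1 means were 6.01 ± 0.20, 7.07 ± 0.20, 6.35 ± 0.01 and 6.35 ± 0.04 (SD, n = 2) in parental, sphere, vector and Snail arrays, and the vector and Snail groups did not differ beyond its spread. SNAI2 means were 3.70 ± 0.58, 3.56 ± 0.42, 6.25 ± 0.17 and 5.67 ± 0.33, so that the HT29 groups did not differ beyond their spread. ZEB1 means were 4.99 ± 0.27, 5.07 ± 0.03, 6.63 ± 0.08 and 6.32 ± 0.04, and TWIST2 means 4.06 ± 0.20, 4.22 ± 0.28, 5.00 ± 0.08 and 5.06 ± 0.03, again with no difference beyond the spread within HT29. Over the 8 arrays, as a description, ZEB1 correlated with SNAI2 at 0.976 and with TWIST2 at 0.913, and SNAI1 with FOXC2 at 0.839. These points share 4 groups of 2, and the first correlations mostly restate the line difference.

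The genes most like each factor were taken from all genes by Pearson correlation over the 8 arrays, for the 6 factors whose group means spanned at least 1 log2. SNAI1 was most like IKZF5 (0.991), CDA (0.987) and PLPP3 (0.984), whose means also peaked in spheres (8.39, 11.18 and 9.07 against 7.08, 7.26 and 8.05 in parental cells). ZEB1 was most like CSRP2 (0.999), TOP3A (0.997) and SLIT1 (0.996), and SNAI2 most like MITF (0.992), ISOC1 (0.990) and TXNDC17 (0.989). TOP3A, a DNA topoisomerase, averaged 6.70, 6.71, 7.84 and 7.54 in parental, sphere, vector and Snail arrays. TWIST2 was most like ZNF605 (0.990), ZNF71 (0.989) and GLI3 (0.988), and PRRX1 most like CFAP20DC (0.996), UBXN7-AS1 (0.991) and CXCL14 (0.990). CXCL14, a chemokine, averaged 4.62, 4.99, 6.11 and 8.65 in parental, sphere, vector and Snail arrays. SNAI3 was most like OCRL (0.982), ZNF580 (0.977) and PRSS27 (0.976). These values rest on 8 arrays in 4 groups and are a description only. How many genes come close to them is not given here.

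Between the lines most epithelial genes reported as targets of these repressors were lower in SW480 and most called mesenchymal genes higher. Of 26 measured epithelial targets, 18 were lower and 1 higher in SW480 vector than in HT29 parental cells (73.1% called, against 46.1% of all genes), with a median of -0.79 log2 beside 0.07 over all genes. RAB25, a GTPase of epithelial membrane traffic, fell most clearly, from 11.79 ± 0.11 to 5.06 ± 0.09 (SD, n = 2), or by 6.73 ± 0.15 log2 (adjusted p = 6.6e-10). PKP2, a desmosomal plakophilin, was the 1 gene higher (1.18 ± 0.15). The promoters shown above belong to CLDN7 (-0.74), CRB3 (-0.65) and AP1M2 (-2.41). CDH1 read 11.63 and 12.15 on the parental arrays and 8.43 and 8.60 in vector cells, a difference of -3.38 ± 0.17 (adjusted p = 1.0e-07). Of 23 measured mesenchymal genes 13 were higher and the other 10 did not pass, with a median of 0.74. VIM, vimentin, read 6.15 and 5.91 against 12.88 and 12.81, a difference of 6.81 ± 0.14 (adjusted p = 4.1e-10), and 0.97 by its dimmer probe set. CDH2, N-cadherin, differed by -0.12 and did not pass; it was named after its value was seen. Epithelial factors known to oppose EMT, such as the Grainyhead and OVOL proteins, were all called among the 15 measured: 12 lower and 3 higher, with a median of -1.9. EHF, an epithelial ETS factor, fell from 12.14 ± 0.09 to 6.87 ± 0.05 (adjusted p = 1.0e-09), and ID3, an inhibitor of helix-loop-helix factors, was 1.06 ± 0.18 higher.

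In the arrays labelled Snail more epithelial targets rose than fell against vector, and more mesenchymal genes fell than rose. Of the 26 epithelial targets 10 rose and 1 fell (42.3% called, against 16.2%), at a median of 0.40 log2. ESRP1, an epithelial splicing regulator, rose from 7.49 ± 0.04 to 9.23 ± 0.09, or by 1.73 ± 0.14 (adjusted p = 5.1e-05), and CLDN3, a claudin, fell by 0.94 ± 0.27 (adjusted p = 0.041). CDH1 rose from 8.43 and 8.60 to 9.30 and 9.24 (0.76 ± 0.17, adjusted p = 0.013). Its call was lost without vector array 1 (0.67), Snail array 1 (0.73) or Snail array 2 (0.79), and also with the dimmer probe set (0.28) and with the mean of both (0.52). Of 23 mesenchymal genes 7 fell and 1 rose, at a median of -0.18. SPARC, a matrix protein, fell from 8.67 ± 0.04 to 5.75 ± 0.01 (adjusted p = 3.2e-06). ACTA2, smooth muscle actin, rose by 0.73 ± 0.14, though its 3 probe sets ran from -0.42 to 0.73. VIM fell by 0.62 ± 0.14 (adjusted p = 0.013), a call lost without any 1 of the 4 SW480 arrays, where it stayed between -0.66 and -0.59, and with its dimmer probe set (-0.27). Among 15 opposing epithelial factors 5 rose and 1 fell: EHF rose by 2.14 ± 0.13 (adjusted p = 1.5e-05), and FOXA2, a forkhead factor of endoderm, fell by 0.83 ± 0.23. Their other probe sets reached -0.19 for EHF and 0.17 for FOXA2. With 1 SW480 array left out (the vector pair, then the Snail pair, each in number order) there were 8, 7, 6 and 6 epithelial rises, 6, 5, 5 and 5 mesenchymal falls, and 2, 2, 2 and 3 rises among the opposing factors.

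In spheres, where SNAI1 rose, epithelial targets and opposing factors had calls in both directions. Of the 26 epithelial targets 11 rose and 4 fell (57.7% called, against 31.4%), at a median of 0.24 log2. CDH17, an intestinal cadherin, rose from 5.08 ± 0.01 to 9.82 ± 0.14, or by 4.74 ± 0.15 (adjusted p = 4.9e-08), from a parental value in the dim range. ESRP1 fell by 1.29 ± 0.14. CDH1 read 11.94 and 11.88 in spheres, within the parental range of 11.63 to 12.15 (0.02 ± 0.17, adjusted p = 0.95; 95% interval -0.36 to 0.39). Of 23 mesenchymal genes 3 rose and 20 did not pass (13.0% called, below the 31.4% over all genes). SERPINE2, a secreted protease inhibitor, led the rises at 3.28 ± 0.15, and its other probe set gave 1.04. VIM was 0.31 ± 0.14 (adjusted p = 0.12). Of 15 opposing factors 3 rose and 7 fell, and 4 fell without either of the sphere arrays. KLF4, an epithelial differentiation factor, rose by 1.21 ± 0.13, and OVOL2, a repressor of ZEB1 in epithelia, fell from 7.65 ± 0.02 to 5.36 ± 0.08 (adjusted p = 1.2e-06), though its dimmer probe set gave -0.18. Serum-free medium, its supplement and the added bFGF and EGF came with sphere form throughout, and their effects cannot be told apart.

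**Figure D4:**
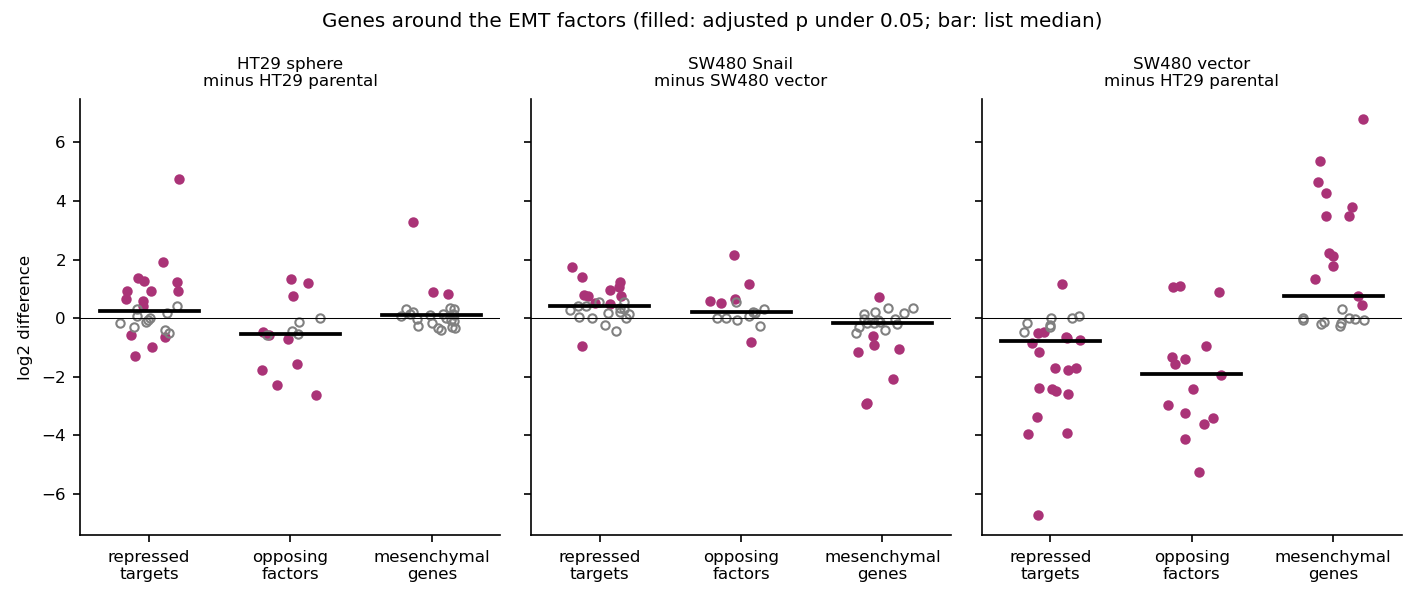
Log2 difference (y axis) of 26 epithelial targets, 15 opposing epithelial factors and 23 mesenchymal genes in the 3 comparisons; each point is a gene, filled points have an adjusted p under 0.05, and bars mark list medians. The medians are -0.79, -1.9 and 0.74 between the lines, and 0.40, 0.22 and -0.18 in the arrays labelled Snail.

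Other EMT transcription factors, 14 measured of 16 listed, were called in 9 cases between the lines (4 higher, 5 lower), 5 in spheres (all lower) and 6 under the Snail label (2 higher, 4 lower). These are 64.3%, 35.7% and 42.9% of the list, against 46.1%, 31.4% and 16.2% of all genes. HMGA2, a chromatin factor, was 2.04 ± 0.15 higher in vector than in parental cells and fell by 0.70 ± 0.15 in the arrays labelled Snail. Its 9 probe sets ran from -0.11 to 2.04 between the lines and from -0.70 to 0.17 in the Snail comparison. GATA6, an endoderm factor, was -6.58 ± 0.25 between the lines, but its second probe set gave 0.03. TCF12, a helix-loop-helix partner of TWIST proteins, fell by 1.34 ± 0.14 in spheres and rose by 0.84 ± 0.14 under the Snail label. Its 4 probe sets disagreed in both, from -1.34 to 0.06 and from -0.47 to 0.84.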

How the data were processed

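RNA of 8 cell line samples was hybridised to Affymetrix arrays, 1 array per sample. Per the submitters' processing notes, the authors used RMA to make the deposited log2 expression values per probe set; its version is not given in the sources used here. RMA draws array distributions together and compresses low signals, so folds from dim values are uncertain. Probe sets were named through GEO's platform annotation: 41091 name 1 gene, 1801 several and 11721 none, besides 62 controls. Each gene was its probe set with the highest mean over the 8 arrays. Group means were fitted on 8 arrays with limma 3.58.1 in R 4.3.3 (4 residual and 6.10 prior degrees of freedom), two-sided, with Benjamini-Hochberg adjustment over 19775 genes and a threshold of 0.05. For other probe sets the adjustment ran over all probe sets. Tested on simulated data, the fit recovered 65 of 100 genes changed by 1 log2 and 96 of 100 changed by 2 in the sphere comparison. It made 10 false calls there. In the simulation 200 of 19775 genes changed and spreads were shuffled among genes, while 31.4% of genes passed in the data. These rates may therefore not hold for the dim factors. An exact permutation of 2 arrays against 2 cannot go below 0.333 (two-sided), so none was run. Precision is limited by the number of arrays. Means carry SD over 2 arrays and differences carry SE. The deviations of same-numbered arrays from their group means correlated at -0.057 to 0.061, so the numbers were not used as pairs.

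The genes, lists and tests were chosen with earlier results of these data known. Named genes were all 9 factors, CDH1 and VIM, the called gene of lowest adjusted p in each direction from each of 6 lists, and the 3 genes most correlated with each factor spanning 1 log2 or more. The promoters shown, CDH2 and the named markers of other cell types were chosen after their values were seen. Alternatives were the mean of a gene's probe sets, each other probe set, quantile normalization, array medians subtracted, the dimmest 40% of genes left out, only the arrays compared, array weights, a trended robust prior, a replicate block and each array left out.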

Additional observations from a re-analysis of the deposited data

Results flagged for a closer look

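The difference between both responses, the Snail comparison minus the sphere comparison, was tested for the 9 factors, CDH1 and VIM. It passed the threshold for 4 of these genes, among them 2 of the 9 factors, where 27.5% of all genes passed. SNAI1 gave -1.06 log2 (adjusted p = 0.0036), with a rise in spheres and 0.00 under the Snail label. SNAI3 gave 1.35 (adjusted p = 0.035), and leaving out parental array 2, either sphere array, vector array 1 or either Snail array ended the call (0.84 to 1.52). CDH1 gave 0.741 (adjusted p = 0.043); it lost the call in 10 of 16 alternatives, with values from 0.22 to 1.00. VIM gave -0.934 (adjusted p = 0.0056) and kept the call in 15 of 16, the exception being its dimmer probe set (-0.31).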

How the results depend on the processing

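Over 44 values (the 9 factors, CDH1 and VIM in 4 comparisons, the difference between responses included) 713 alternatives were run. In 657 the value stayed called or stayed uncalled, 45 lost the call, 9 gained it and 2 reversed. The 657 include values that were never called, so they do not measure how often a call was kept. Of the 657, 34 changed sign with neither value called. The reversals were second probe sets, FOXC2 in spheres (-0.0759) and TWIST2 between the lines (-0.0611); the cause was not tested. Leaving out the dimmest 40% of genes removed every factor but SNAI1, so the factors called came to 1 in spheres, 0 under the Snail label, 0 between the lines and 1 for the difference between responses. SNAI1 then had an unadjusted p under 0.05 between the lines but not under the Snail label. With the mean of probe sets limma called 0 factors under the Snail label, as it did without Snail array 2, and 1 had an unadjusted p under 0.05 in each. With 1 array left out, 1 to 3 factors were called in spheres, 0 to 1 under the Snail label, 3 to 6 between the lines and 1 to 3 for the difference. All genes called under the Snail label then ran from 1447 to 4087, against 3213. In spheres the epithelial targets that fell ran from 3 to 7 over the alternatives. The replicate block left 3, 1, 5 and 2 factors called in spheres, under the Snail label, between the lines and for the difference, the same counts as without it, and changed no call of a single factor, CDH1 or VIM. In spheres it gave 10 epithelial rises in place of 11, 1 mesenchymal fall in place of 0 and 8 falls of opposing factors in place of 7; for the difference it gave 8 opposing factors higher in place of 7. Most factors read in the dim range, which limits what a missed call can show.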

Other observations

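Of 25 measured cofactors and stability regulators, 3 rose and 9 fell in spheres, 2 rose and 1 fell under the Snail label, and 5 were higher and 10 lower in SW480 vector than in HT29 parental cells. These are 48.0%, 12.0% and 60.0% of the list, against 31.4%, 16.2% and 46.1% of all genes. LATS2, a kinase that phosphorylates Snail, rose by 1.20 ± 0.14 log2 in spheres, and SUV39H1, a histone methyltransferase, fell by 1.40 ± 0.16. GSK3B, a kinase that marks Snail for degradation, rose by 0.80 ± 0.12 in the arrays labelled Snail (adjusted p = 0.0016) and was -1.48 ± 0.12 in vector against parental cells; its 5 probe sets ran from -2.27 to 0.13 between the lines. PRKD1, a kinase of Snail, fell by 0.53 ± 0.15 under the Snail label, from readings in the dim range, and its other probe set gave -0.10. PRMT5, an arginine methyltransferase, was 1.51 ± 0.15 higher in vector than in parental cells.

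Of 27 genes listed as inducers or regulators of these factors, 5 rose and 8 fell in spheres. Under the Snail label 6 rose and 5 fell, and between the lines 7 were higher and 12 lower. The list mixes roles (SMAD7, MTA3 and BMP7 are not plain inducers), so its counts are not directions of induction. The shares were 48.1%, 40.7% and 70.4%, against 31.4%, 16.2% and 46.1% of all genes. TGFB1, a ligand that induces EMT, rose by 1.48 ± 0.18 in spheres while TGFBR1, a receptor for it, fell by 2.10 ± 0.16; the other TGFB1 probe set gave 0.32, and the probe sets of TGFBR1 ran from -2.10 to 0.01. HIF1A rose by 1.18 ± 0.14 under the Snail label, and MET, the receptor of hepatocyte growth factor, fell by 1.77 ± 0.13. WNT5A, a non-canonical Wnt ligand, was 7.28 ± 0.12 higher in vector than in parental cells (4.56 ± 0.03 against 11.84 ± 0.07), and MET was -2.89 ± 0.13.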
